A study of Mus with 21 samples.

Results

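The *Very long brain-expressed genes* described here are 41 mouse genes, most of them known from neurons, that were chosen by name for their length: each is spread over roughly 0.3 Mb of genome or more. All 41 names were found among the 55335 rows of the count table. In the GRCm38.p6 RefSeq annotation their spans, from the first to the last annotated base, ran from 0.472 Mb for *Xkr4* to 2.39 Mb for *Dmd*, with a median of 1.14 Mb, and 31 of them were 1 Mb or longer. The choice used no measured value, but it was made with earlier results of these data known.

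The RNA came from whole brains of female embryos at E17.5, 1 library per brain. The groups were 5 WT (*Wapl* +/+; *Nipbl* +/+), 3 *Nipbl*+/- (*Wapl* +/+; *Nipbl* +/delta), 7 *Wapl* delta/+ (*Nipbl* +/+) and 6 double heterozygotes (*Wapl* delta/+; *Nipbl* +/delta). Both mutations are deletions present in every cell: the *Nipbl* deletion was made by a Cre that is active in the sire's germ cells, and the *Wapl* deletion had been made in an earlier generation and removes the promoter and the start of the coding sequence. The paper describes 2 crosses, with the *Wapl* deletion carried by the dam in 1 and by the sire in the other. The labels do not give the litter of a brain. They write the *Wapl* deletion before the wild-type allele in *Wapl* delta/+ replicates 1 and 2 and double heterozygotes 1 to 4, and after it in the other carriers.

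NIPBL helps cohesin rings to load onto chromosomes and to form loops, and WAPL releases the rings, so the study asked whether less WAPL offsets the loss of NIPBL. Very long genes are common among the genes of neurons, where they encode adhesion molecules, synaptic receptors, scaffolds and channels. Most of their length is intron, and an RNA polymerase needs many hours to cross the longest of them.

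Total counts ran from 25682566 to 35818767 per library, and the targeted genes fitted the labels: *Nipbl* differed from WT by -0.89 on the log2 scale in *Nipbl*+/- brains and by -0.86 in double heterozygotes, and *Wapl* by -1.09 in *Wapl* delta/+ brains and by -1.01 in double heterozygotes. The libraries fell into a set with 0 to 6 counts of the mitochondrial gene *mt-Nd3* and a set with 52 to 106. The higher set held WT 4 and 5, *Wapl* delta/+ 3 to 7 and double heterozygotes 5 and 6, and no *Nipbl*+/- library. No label explains this split in WT, but in all carriers of the *Wapl* deletion it coincides with the written order of the *Wapl* alleles. The counts of called genes are therefore also given within the lower set, where *Wapl* delta/+ is left with 2 brains.

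All 41 genes passed the filter on low counts, and 36 of them averaged 100 normalized counts or more over the libraries. The 5 below that mean were *Il1rapl2* (75.4), *Fhit* (65.8), *Sgcz* (37.7), *Immp2l* (28.0) and *Ctnna3* (8.97). Normalized counts are reads per gene scaled to a common library size and not divided by transcript length, so they are compared between brains and not between genes. The adjusted *P* values are those of edgeR (quasi-likelihood *F* test, Benjamini-Hochberg over all 30552 genes tested), and a gene was called where its value was below 0.10.

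In *Nipbl*+/- brains, 24 of the 41 genes were called, 23 of them lower than in WT and 1 higher. Among the genes called, the largest falls were in *Il1rapl2* and *Il1rapl1*, which encode synaptic organizers, in the adhesion gene *Lsamp*, in *Lrp1b*, in the postsynaptic scaffold gene *Dlg2* and in *Csmd3*, and the gene that rose was *Auts2*. Of all genes tested, 11.2% were called in this comparison, 6.96% lower and 4.25% higher, against 58.5% of the 41. The median log2 fold change over the 41 was -0.18, within a range of -0.67 to 0.22, and 34 were below 0, while the median over all genes tested was -0.01. In 18 of the 41, every *Nipbl*+/- brain was below every WT brain, as for 6.9% of all genes, and in *Auts2* every *Nipbl*+/- brain was above, as for 6.54%. In whole-brain RNA, fewer cells of a type and less RNA per cell cannot be told apart.

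In *Wapl* delta/+ brains, 5 of the 41 genes were called, all lower (*Tenm2*, *Csmd1*, *Dlg2*, *Lsamp* and *Opcml*), against 2.21% of all genes called, 1.44% lower and 0.769% higher. Their median log2 fold change was -0.10, with 33 below 0. None of the 41 had every *Wapl* delta/+ brain below every WT brain, which was so for 0.471% of all genes. In double heterozygotes, 7 were called, all lower (*Csmd3*, *Dlg2*, *Asic2*, *Lingo2*, *Nrg3*, *Dmd* and *Cdh13*), against 3.27% of all genes, 2.46% lower and 0.812% higher. The median there was also -0.10, with 31 below 0. In 5 of the 41, every double heterozygote was below every WT brain, as for 2.29% of all genes. The 3 comparisons share their WT brains, so likeness among them is not counted as a result.

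These counts depended on single libraries, and the share of all genes called moved with them. Without *Nipbl*+/- replicate 1, 13 genes were called in *Nipbl*+/- brains (5.98% of all genes), and without any other single library 16 to 23 were (8.17% to 15.7%). Within the lower *mt-Nd3* set 16 were called, 15 of them lower (6.16% of all genes called). For *Wapl* delta/+ brains the count was 0 without WT replicate 1, 2 or 5 (0.0426%, 0.0295% and 0.324% of all genes) and also 0 within the lower *mt-Nd3* set (0.154%). It was 1 without WT replicate 4 or *Wapl* delta/+ replicate 4 or 5 (0.789% to 0.864% of all genes). Without *Wapl* delta/+ replicate 1 it was 3 (1.45%), and without replicate 6 it was 8 (2.99%). In double heterozygotes it was 3 without WT replicate 1, WT replicate 4 or double heterozygote 4 (1.49% to 1.72% of all genes). It was 4 without WT replicate 2 or 3 or double heterozygote 1 or 6 (1.79% to 2.23%). It was 12 without double heterozygote 3 (5.52%), 15 without double heterozygote 5 (8.19%) and 4 within the lower set (2.20%).

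**Figure D1:**
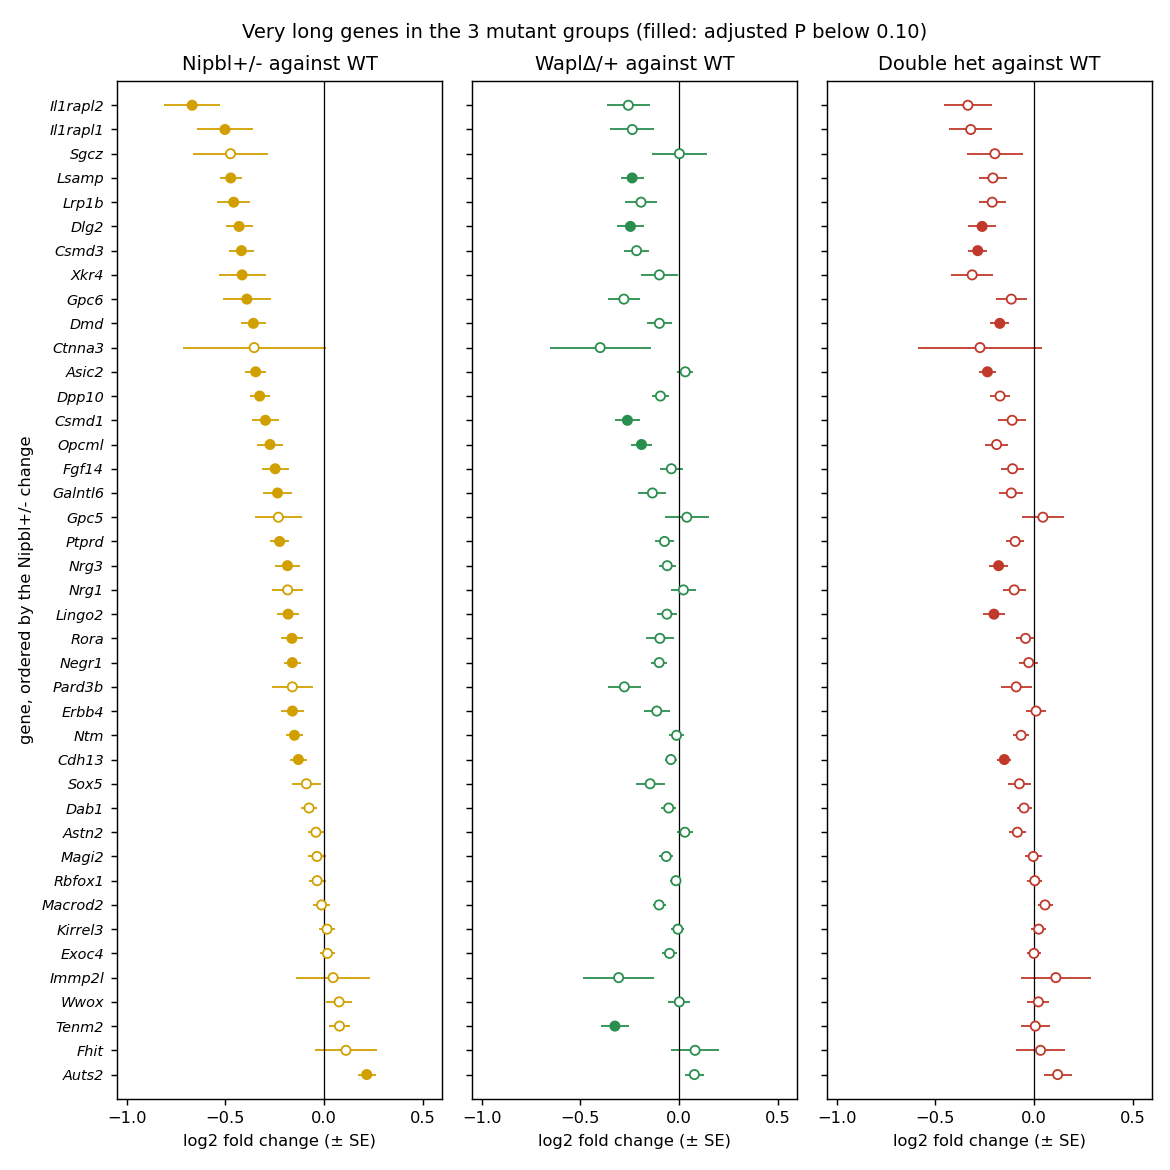
Log2 fold change against WT (x axis, ± SE of the edgeR fit) of the 41 genes (y axis, ordered by the change in *Nipbl*+/- brains) in *Nipbl*+/-, *Wapl* delta/+ and double heterozygote brains. Filled points have an adjusted *P* below 0.10: 24 genes in the first panel, 5 in the second and 7 in the third, with *Auts2* the 1 filled point right of 0.

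The IgLON genes encode small immunoglobulin-domain proteins that are anchored to the neuronal surface by lipid and guide neurite outgrowth and synapse formation. All 4 in the list were lower in *Nipbl*+/- brains. A family member outside the list, *Iglon5*, was not called. Its log2 fold change was 0.10 (adjusted *P* = 0.20) in *Nipbl*+/-, 0.11 (0.18) in *Wapl* delta/+ and 0.09 (0.46) in double heterozygote brains. *Lsamp* (chr16:39984254-42181679), which encodes the limbic system-associated membrane protein, had 5934, 5559, 4993, 5291 and 5339 normalized counts in WT and 3657, 4323 and 3791 in *Nipbl*+/- brains. Its lowest, median and highest values were 3921, 4859 and 5141 in *Wapl* delta/+ brains and 4085, 4439 and 5549 in double heterozygotes. Every *Nipbl*+/- brain was below every WT brain, and the other mutants reached into the WT range. The log2 fold change was -0.47 ± 0.06 (SE; adjusted *P* = 8.4e-05) in *Nipbl*+/-, -0.24 ± 0.06 (0.059) in *Wapl* delta/+ and -0.21 ± 0.07 (0.18) in double heterozygotes.

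*Opcml* (chr9:27790716-28925410) and *Ntm* (chr9:28994749-29963269), which encodes neurotrimin, lie close together on the same chromosome. *Opcml* had 3841, 3571, 3513, 3820 and 3651 normalized counts in WT against 2695, 3544 and 2927 in *Nipbl*+/- brains, where replicate 2 was inside the WT range. Its lowest, median and highest values were 2772, 3196 and 3628 in *Wapl* delta/+ brains and 2800, 3192 and 3688 in double heterozygotes. *Opcml* fell by 0.27 ± 0.06 (adjusted *P* = 0.012) in *Nipbl*+/- and by 0.19 ± 0.05 (0.099) in *Wapl* delta/+ brains on the log2 scale, and its value in double heterozygotes was -0.19 ± 0.06 (0.12). In fits without 1 library, the *Wapl* delta/+ call was lost in 9 of 12 for *Opcml*, in 6 of 12 for *Csmd1* and *Lsamp* and in 3 of 12 for *Tenm2*.

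*Ntm* had 5850, 5797, 5604, 5754 and 5629 normalized counts in WT and 5174, 5602 and 4769 in *Nipbl*+/- brains, so the groups touched without overlap. It ran from 5080 through a median of 5574 to 6153 in *Wapl* delta/+ brains, and in double heterozygotes from 5100 through 5434 to 5885. Its log2 fold change was -0.15 ± 0.04 (adjusted *P* = 0.045) in *Nipbl*+/-, -0.01 ± 0.04 in *Wapl* delta/+ and -0.07 ± 0.04 in double heterozygotes. *Negr1* (chr3:156561790-157316464), a neuronal growth regulator, had 6329, 6070, 5806, 5936 and 5812 in WT and 5277, 5744 and 5122 in *Nipbl*+/- brains, all 3 lower. It ran from 5062 through 5597 to 6089 in *Wapl* delta/+ and from 5269 through 5836 to 6441 in double heterozygotes. The log2 fold changes of *Negr1* were -0.16 ± 0.04 (adjusted *P* = 0.025), -0.10 ± 0.04 (0.24) and -0.03 ± 0.05 (0.88) in *Nipbl*+/-, *Wapl* delta/+ and double heterozygote brains. Leaving out single libraries in turn ended the *Nipbl*+/- call of *Ntm* in 4 of 8 fits and that of *Negr1* in 2 of 8.

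Of the 7 genes for trans-synaptic adhesion proteins and receptors, 5 were lower in *Nipbl*+/- brains. *Il1rapl1* and *Il1rapl2* encode relatives of the interleukin receptor accessory protein that organize synapses. *Il1rapl2* (chrX:137570754-138849077) had 85.2, 104, 85.4, 98.0 and 82.0 normalized counts in WT and 56.7, 66.1 and 48.7 in *Nipbl*+/- brains, 62.9% of the WT mean. Its lowest, median and highest values were 62.9, 75.7 and 93.6 in *Wapl* delta/+ brains and 59.0, 69.6 and 84.5 in double heterozygotes. The 3 *Nipbl*+/- brains were below all WT brains, and both other groups straddled the WT minimum. *Il1rapl2* changed by -0.67 ± 0.14 (adjusted *P* = 0.0070) in *Nipbl*+/-, -0.26 ± 0.11 (0.25) in *Wapl* delta/+ and -0.33 ± 0.12 (0.19) in double heterozygotes.

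*Il1rapl1* (chrX:86740937-88115948) had 227, 183, 148, 149 and 144 normalized counts in WT and 106, 129 and 127 in *Nipbl*+/- brains. It ran from 121 through a median of 149 to 173 in *Wapl* delta/+ and from 119 through 136 to 148 in double heterozygotes. WT replicate 1 was the highest of all libraries and WT replicates 3 to 5 lay close above the *Nipbl*+/- brains. *Il1rapl1* differed from WT by -0.50 ± 0.14 (adjusted *P* = 0.038), -0.24 ± 0.11 (0.31) and -0.32 ± 0.11 (0.17) in *Nipbl*+/-, *Wapl* delta/+ and double heterozygote brains, and the first call was lost without *Nipbl*+/- replicate 1 (0.19). *Ptprd*, whose product is a receptor phosphatase that binds IL1RAPL1 across the synapse, was also lower in *Nipbl*+/- brains, at -0.22 ± 0.05 (adjusted *P* = 0.0058), and was called in every fit that left out 1 library.

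*Lingo2* (chr4:35696778-36951744), which encodes a leucine-rich repeat membrane protein, had 536, 555, 534, 520 and 542 normalized counts in WT and 469, 504 and 452 in *Nipbl*+/- brains. It ran from 456 through 501 to 559 in *Wapl* delta/+ and from 431 through 448 to 511 in double heterozygotes, all 6 below WT. The log2 fold change was -0.18 ± 0.06 (adjusted *P* = 0.061) in *Nipbl*+/- and -0.20 ± 0.05 (0.061) in double heterozygotes, and -0.06 ± 0.05 in *Wapl* delta/+ brains. *Cdh13* (chr8:118140017-119324929), which encodes T-cadherin, had 4711, 4711, 4871, 5019 and 4943 in WT and 4309, 4797 and 4248 in *Nipbl*+/- brains. It ran from 4426 through 4729 to 4920 in *Wapl* delta/+ and from 4181 through 4367 to 4406 in double heterozygotes, a narrow band under every WT brain. *Cdh13* changed by -0.15 ± 0.03 (adjusted *P* = 0.032) in double heterozygotes and by -0.13 ± 0.04 (0.082) in *Nipbl*+/- brains, and stood at -0.04 ± 0.03 in *Wapl* delta/+ brains. Without single libraries the *Nipbl*+/- calls were lost in 7 of 8 fits for *Cdh13* and 5 of 8 for *Lingo2*, and the double heterozygote calls in 1 and 7 of 11.

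*Tenm2* (chr11:36006656-37237053), which encodes a teneurin that binds latrophilins across the synapse, was called only in *Wapl* delta/+ brains with all libraries in the fit. Without *Nipbl*+/- replicate 1 it was also called in *Nipbl*+/- brains, where it was higher than in WT. It had 9015, 8704, 8672, 8773 and 8721 normalized counts in WT and 8167, 9928 and 9824 in *Nipbl*+/- brains. The 7 *Wapl* delta/+ brains had 7002, 8963, 7342, 7282, 5912, 6572 and 5852. Only replicate 2 of them reached the WT range. Double heterozygotes 1 to 4, which share the order of the *Wapl* alleles in their labels with *Wapl* delta/+ replicates 1 and 2, had 8948, 9182, 10206 and 9360, and double heterozygotes 5 and 6 had 8282 and 6552. The log2 fold change was -0.32 ± 0.07 (adjusted *P* = 0.045) in *Wapl* delta/+, 0.08 ± 0.05 (0.44) in *Nipbl*+/- and 0.01 ± 0.07 (0.98) in double heterozygotes. Within the lower *mt-Nd3* set the value in *Wapl* delta/+ brains was -0.14 (adjusted *P* = 0.51). Allele order and the *mt-Nd3* split coincide in all carriers of the *Wapl* deletion, so the 2 cannot be told apart. *Kirrel3*, a nephrin-family adhesion gene, was not called by edgeR or DESeq2 in any comparison.

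The large extracellular and migration proteins held 4 genes lower in *Nipbl*+/- brains out of 6. *Csmd1* and *Csmd3* encode very large membrane proteins built of CUB and sushi domains. *Csmd3* (chr15:47580638-48792558) had 836, 760, 704, 749 and 740 normalized counts in WT and 521, 626 and 562 in *Nipbl*+/- brains. It ran from 518 through 653 to 730 in *Wapl* delta/+ and from 579 through 617 to 651 in double heterozygotes. All 3 *Nipbl*+/- brains and all 6 double heterozygotes were below every WT brain. On the log2 scale *Csmd3* stood at -0.42 ± 0.07 (adjusted *P* = 0.00069) in *Nipbl*+/-, -0.29 ± 0.05 (0.0042) in double heterozygotes and -0.22 ± 0.07 (0.12) in *Wapl* delta/+, and the first 2 held in every fit that left out 1 library.

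*Csmd1* (chr8:15892538-17535385) had 1181, 1090, 995, 1105 and 1086 normalized counts in WT and 767, 956 and 954 in *Nipbl*+/- brains, all 3 below WT. It ran from 762 through 914 to 1064 in *Wapl* delta/+ brains and from 866 through 954 to 1166 in double heterozygotes. *Csmd1* fell by 0.30 ± 0.07 (adjusted *P* = 0.010) in *Nipbl*+/- and by 0.26 ± 0.07 (0.063) in *Wapl* delta/+ brains on the log2 scale, and its value in double heterozygotes was -0.11 ± 0.07 (0.54). *Lrp1b* (chr2:40595290-42653598), of the low-density lipoprotein receptor family, had 529, 495, 487, 474 and 505 in WT and 301, 419 and 372 in *Nipbl*+/- brains. It ran from 329 through 436 to 523 in *Wapl* delta/+ and from 363 through 425 to 505 in double heterozygotes. *Nipbl*+/- brains were apart from WT and both other groups overlapped it: the log2 fold change was -0.46 ± 0.08 (adjusted *P* = 0.0022), -0.19 ± 0.08 (0.27) and -0.21 ± 0.07 (0.14) in *Nipbl*+/-, *Wapl* delta/+ and double heterozygote brains.

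The glypican gene *Gpc6* was lower in *Nipbl*+/- brains at -0.39 ± 0.12 (adjusted *P* = 0.055), a call lost in 4 of 8 fits without 1 library. In *Nipbl*+/- brains its paralog *Gpc5* stood at -0.23 ± 0.12 (0.30), and *Astn2*, which encodes an astrotactin of neuronal migration, at -0.04 ± 0.04 (0.64).

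**Figure D2:**
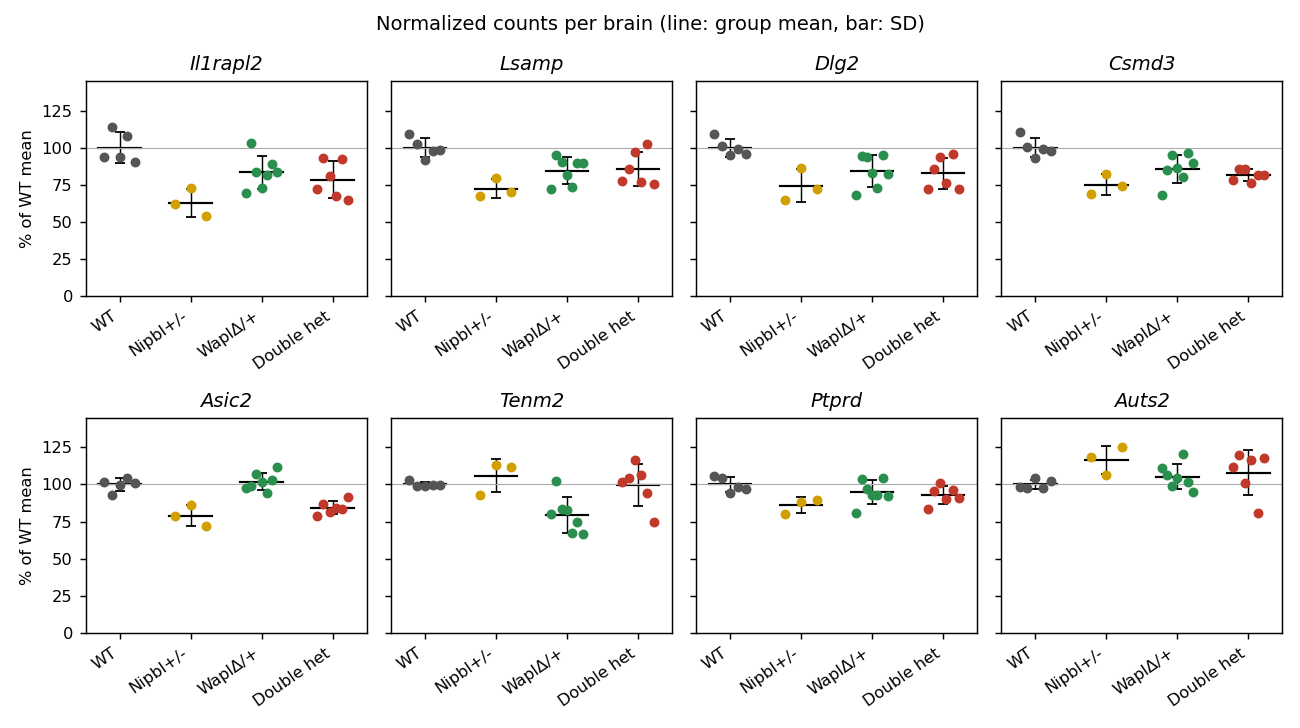
Normalized counts as a percentage of the WT mean (y axis, from 0) in each brain of the 4 groups (x axis) for 8 genes; each point is 1 brain, the line the group mean and the bar the SD. The means of *Il1rapl2*, *Lsamp*, *Dlg2*, *Csmd3*, *Asic2* and *Ptprd* in *Nipbl*+/- brains lie at 62.9% to 85.9% of WT, that of *Auts2* at 117%, and *Tenm2* is low in the *Wapl* delta/+ group, at 79.6%.

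Among the 6 scaffold and junction genes, 2 were lower in *Nipbl*+/- brains. *Dlg2* (chr7:90476188-92449246) encodes PSD-93, a scaffold of the postsynaptic density,. It had 7447, 6883, 6447, 6725 and 6501 normalized counts in WT and 4402, 5885 and 4910 in *Nipbl*+/- brains. It ran from 4612 through 5648 to 6456 in *Wapl* delta/+ and from 4892 through 5513 to 6505 in double heterozygotes. The *Nipbl*+/- brains were all below WT, and the highest brains of the other groups were at the lower edge of WT. The log2 fold change was -0.43 ± 0.07 (adjusted *P* = 0.00083) in *Nipbl*+/-, -0.25 ± 0.07 (0.086) in *Wapl* delta/+ and -0.26 ± 0.07 (0.063) in double heterozygotes. The call was lost in 7 of 12 fits without 1 library in *Wapl* delta/+ brains, in 6 of 11 in double heterozygotes and in 0 of 8 in *Nipbl*+/- brains.

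*Dmd* (chrX:82814664-85205050), the longest of the 41, encodes dystrophin, which links the cytoskeleton to the membrane complex of dystroglycan. It had 1077, 959, 950, 1012 and 955 normalized counts in WT and 681, 819 and 830 in *Nipbl*+/- brains. It ran from 763 through 933 to 1095 in *Wapl* delta/+ and from 781 through 883 to 954 in double heterozygotes, where only the highest touched the WT range. *Dmd* fell by 0.36 ± 0.06 (adjusted *P* = 0.0017) in *Nipbl*+/- brains and by 0.17 ± 0.05 (0.080) in double heterozygotes on the log2 scale, and its value in *Wapl* delta/+ brains was -0.10 ± 0.06 (0.49). Leaving out single libraries ended its call in 7 of 11 fits in double heterozygotes and in 0 of 8 in *Nipbl*+/- brains. Summed skeletal muscle markers ran from 135 to 1373 normalized counts. WT replicate 3, which had the most, had the fewest *Dmd* counts of the WT group. In *Nipbl*+/- replicate 3 (1041) and double heterozygote 3 (1174), the most muscle marker counts of the group went with its highest *Dmd* count. *Wapl* delta/+ replicate 4 also had many (1065, against 139 to 352 in the rest of its group), and its *Dmd* count is not set beside them here. The part of muscle RNA in the *Dmd* values was not tested. *Sgcz*, a sarcoglycan gene, stood at -0.47 ± 0.19 (adjusted *P* = 0.15) in *Nipbl*+/- brains on a mean of 37.7 counts, and *Magi2*, *Pard3b* and *Ctnna3* were not called by edgeR in any comparison. *Pard3b* stood at -0.28 ± 0.08 (adjusted *P* = 0.115) in *Wapl* delta/+ brains, where it was called by DESeq2, without the filter on low counts, with a replicate block and in fits without *Wapl* delta/+ replicate 2 or 6. It was also called in *Nipbl*+/- brains without *Nipbl*+/- replicate 3.

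The 3 genes for channels and their partners were all lower in *Nipbl*+/- brains. *Asic2* (chr11:80880163-81968396) encodes an acid-sensing sodium channel. It had 1557, 1420, 1529, 1597 and 1544 normalized counts in WT, 1200, 1317 and 1105 in *Nipbl*+/- brains, and a range of 1202 through 1280 to 1398 in double heterozygotes. Its range in *Wapl* delta/+ brains was 1444 through 1550 to 1704. Every brain with the *Nipbl* deletion was below every WT brain, and the *Wapl* delta/+ brains overlapped with WT. *Asic2* differed from WT by -0.35 ± 0.05 (adjusted *P* = 0.00069) in *Nipbl*+/-, -0.24 ± 0.04 (0.0064) in double heterozygotes and 0.03 ± 0.04 (0.78) in *Wapl* delta/+ brains. Both calls held in every fit that left out 1 library. *Dpp10*, an auxiliary subunit of A-type potassium channels, fell by 0.33 ± 0.05 (adjusted *P* = 0.00074), and *Fgf14*, which regulates voltage-gated sodium channels, by 0.25 ± 0.07 (0.032) on the log2 scale in *Nipbl*+/- brains. Fits without 1 library lost the call of *Fgf14* in 2 of 8 and that of *Dpp10* in 0 of 8.

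Of the 4 genes of growth factor and reelin signalling, 2 were lower in *Nipbl*+/- brains. *Nrg3* (chr14:38365102-39473235) encodes a neuregulin, a ligand of the receptor kinase ERBB4. It had 963, 880, 961, 870 and 955 normalized counts in WT and 730, 916 and 807 in *Nipbl*+/- brains. It ran from 815 through 903 to 926 in *Wapl* delta/+ and from 762 through 806 to 866 in double heterozygotes, all 6 below WT. *Nrg3* differed from WT by -0.18 ± 0.05 (adjusted *P* = 0.054) in double heterozygotes, by -0.18 ± 0.06 (0.092) in *Nipbl*+/- and by -0.06 ± 0.04 (0.54) in *Wapl* delta/+ brains. Its calls were lost in 5 of 11 and 6 of 8 fits without 1 library in double heterozygotes and *Nipbl*+/- brains. *Erbb4* was at -0.16 ± 0.06 (adjusted *P* = 0.098) in *Nipbl*+/- brains and at 0.01 ± 0.05 (0.97) in double heterozygotes, and its call was lost in 7 of 8 fits without 1 library. The ligand gene *Nrg1* (-0.18 ± 0.08, adjusted *P* = 0.19) and *Dab1*, the adaptor of reelin signalling (-0.08 ± 0.04, 0.34), were not called, though *Nrg1* was with a replicate block, with a term for the *mt-Nd3* set and without *Nipbl*+/- replicate 3.

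The nuclear regulators held the rise. *Auts2* (chr5:131437333-132543220), which encodes a chromatin regulator that works with a Polycomb complex in neurons, had 6915, 6875, 7342, 6857 and 7199 normalized counts in WT and 8337, 7492 and 8814 in *Nipbl*+/- brains. It ran from 6658 through 7339 to 8471 in *Wapl* delta/+ and from 5668 through 8045 to 8420 in double heterozygotes. Double heterozygote 5 was the lowest of all brains and the other 5 were in or above the WT range. The log2 fold change was 0.22 ± 0.05 (adjusted *P* = 0.0060) in *Nipbl*+/-, 0.08 ± 0.05 (0.44) in *Wapl* delta/+ and 0.12 ± 0.07 (0.50) in double heterozygotes. The first call held in every fit without 1 library. *Rora*, a nuclear receptor gene, was lower in *Nipbl*+/- brains at -0.16 ± 0.06 (adjusted *P* = 0.087), a call lost in 6 of 8 such fits. *Sox5*, a transcription factor gene of deep-layer cortical neurons, stood at -0.09 ± 0.07 and the splicing regulator gene *Rbfox1* at -0.03 ± 0.04. Without *Nipbl*+/- replicate 3, *Sox5* was called lower in *Nipbl*+/- brains.

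Of the 7 genes for enzymes, trafficking and other functions, *Xkr4* (-0.41 ± 0.12, adjusted *P* = 0.039), of a family of lipid scramblases, and *Galntl6* (-0.24 ± 0.07, 0.057), of a family of glycosyltransferases, were lower in *Nipbl*+/- brains. In fits without 1 library the call of *Galntl6* was lost in 4 of 8 and that of *Xkr4* in 1 of 8. *Macrod2*, *Fhit*, *Wwox*, *Exoc4* and *Immp2l* had log2 fold changes from -0.01 to 0.11 in *Nipbl*+/- brains and were not called by edgeR in any of the 5 comparisons. DESeq2 called *Macrod2* lower in *Wapl* delta/+ brains, where edgeR gave it -0.10 ± 0.03 (adjusted *P* = 0.14) and called it without replicate 6 or under a stricter filter (mean count of 100 or more). Their spans reached that of *Dlg2* (1973 kb): *Macrod2* spans 1998 kb, *Fhit* 1612 kb, *Immp2l* 932 kb and *Wwox* 913 kb. In all, 13 of the 41 overlap another protein-coding gene in the annotation, among them *Macrod2* with *Flrt3*, *Immp2l* with *Lrrn3*, *Ctnna3* with *Lrrtm3*, *Astn2* with *Trim32* and *Fgf14* with *Itgbl1*. The strand setting of the counting is not given in the sources used here, so reads in such overlaps cannot be told apart.

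Double heterozygotes were also compared directly with *Nipbl*+/- brains, which asks whether the *Wapl* deletion moves these genes when *Nipbl* is already reduced. None of the 41 was called by edgeR or by DESeq2, and 2 of all genes tested were (0.00655%, with 0.00327% higher and 0.00327% lower). With no adjustment of *P*, 5 of the 41 passed 0.05, or 12.2%, against 4.12% of all genes. All 5 were higher in double heterozygotes: *Erbb4* (0.16 ± 0.05 on the log2 scale), *Lsamp* (0.25 ± 0.10), *Dmd* (0.17 ± 0.07), *Lrp1b* (0.23 ± 0.11) and *Gpc6* (0.26 ± 0.12), each with an adjusted *P* of 0.97. *Erbb4* had 1227, 1246 and 1234 normalized counts in *Nipbl*+/- brains and 1284 to 1415 in double heterozygotes, without overlap. The share of all genes without overlap was not computed for this comparison, so nothing is drawn from that separation. The median over the 41 was 0.07, with 31 above 0, against a median of 0.00 over all genes. Of the 464 other genes of 300 kb or more that averaged 100 normalized counts or more, 12.7% passed 0.05 unadjusted. Their median was 0.06. Of the 36 listed genes at that level, 13.9% passed.

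The interaction of the genotypes is the difference between the double heterozygotes and the sum of both single changes, and was fitted on all 4 groups. By edgeR 0 of all genes were called (0%), neither among the 41 nor elsewhere, and none was called higher or lower. With no adjustment of *P*, 16 of the 41 passed 0.05, or 39.0%, against 13.8% of all genes, and all 16 were above 0, meaning that the double heterozygotes were higher than the sum. The largest were *Il1rapl2* (0.55 ± 0.19), *Gpc6* (0.52 ± 0.15), *Lsamp* (0.46 ± 0.12) and *Csmd1* (0.41 ± 0.12), with adjusted *P* of 0.20 each. The median over the 41 was 0.18, with 34 above 0, and over all genes it was -0.02. Of the 464 other genes of 300 kb or more that averaged 100 normalized counts or more, 37.3% passed 0.05 unadjusted. Their median was 0.11. Of the 36 listed genes at that level, 41.7% passed. DESeq2 called 7 of the 41 higher (*Lsamp*, *Csmd1*, *Dlg2*, *Csmd3*, *Erbb4*, *Negr1* and *Macrod2*, with log2 values of 0.16 to 0.49). It called 1.54% of all 30545 genes with a *P* value higher. DESeq2 gave no adjusted *P* to many of the 41, among them *Il1rapl2*, *Gpc6* and *Lrp1b*, so these could not be called by it. The 30545 also hold genes without an adjusted *P*, and no share among genes with like counts was computed for DESeq2. The 7 of 41 and the 1.54% are therefore not on a like base.

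The 41 were set beside all other genes that averaged 100 normalized counts or more, by span. In *Nipbl*+/- brains 20.5% of the 14542 such genes were called. The share was 15.5% of 3292 genes under 10 kb, 18.4% of 8055 genes of 10 to 100 kb, 35.1% of 1580 genes of 100 to 300 kb and 53.4% of the 464 other genes of 300 kb or more. Of the 36 listed genes at that level 23 were called, 63.9%. Of the 464, 239 were lower and 9 higher, with a median log2 fold change of -0.18, the same as that of the 36. Most of the 464 are shorter than the listed genes: 299 of them span 300 to 500 kb. The 25 that span 1000 kb or more had a median of -0.25, with 68% called lower. No test was made of a difference between the list and other genes of its length. Without *Nipbl*+/- replicate 1 the 239 became 171, and within the lower *mt-Nd3* set 191.

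In *Wapl* delta/+ brains the shares called were 2.86%, 2.97%, 7.41% and 11.6% over the same classes, and 13.9% of the 36 listed genes. In double heterozygotes they were 4.50%, 4.39%, 13.2% and 25.4%, and 19.4% of the listed genes. The median log2 fold change of genes under 10 kb was above 0 in each comparison, at 0.03 in *Nipbl*+/-, 0.05 in *Wapl* delta/+ and 0.04 in double heterozygotes. Among the 36 listed genes themselves, span and log2 fold change had a Spearman correlation of -0.34 in *Nipbl*+/-, -0.29 in *Wapl* delta/+ and -0.25 in double heterozygotes, given as a description over genes measured in the same libraries. The Spearman correlation with mean level was 0.40, 0.06 and 0.29.

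**Figure D3:**
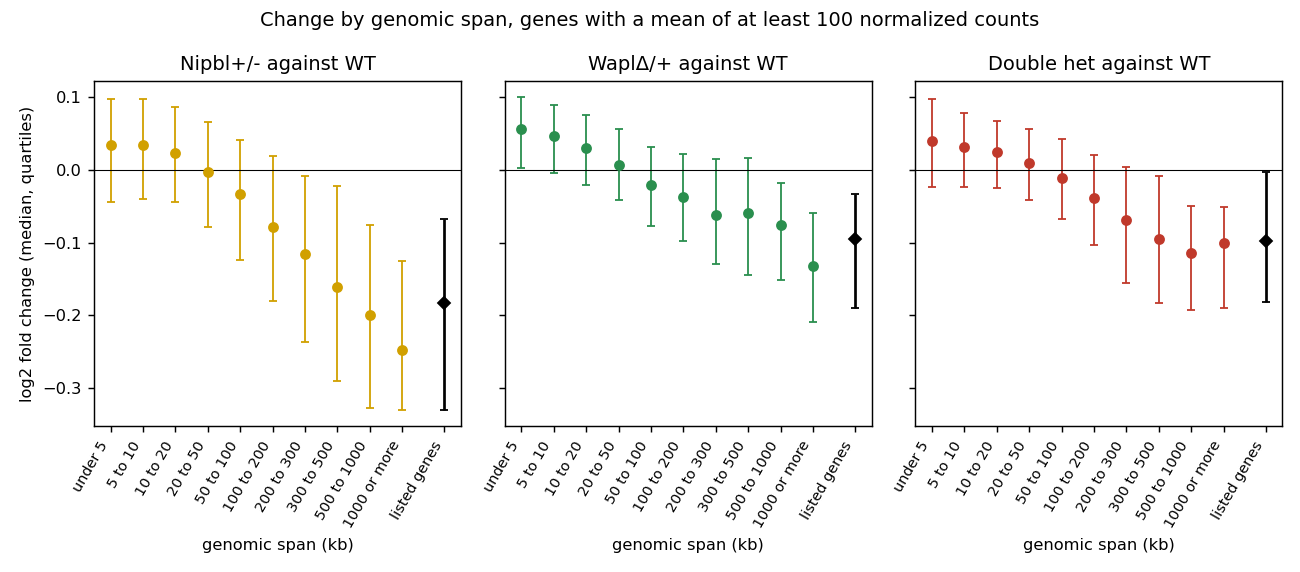
Median log2 fold change against WT with quartiles (y axis) of genes averaging 100 normalized counts or more, binned by genomic span in kb (x axis, listed genes left out), and of the 36 listed genes at that level (black diamond). In *Nipbl*+/- brains the bin medians run from 0.03 under 5 kb to -0.25 in the 25 genes of 1000 kb or more, and the diamond is at -0.18.

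Brains of 1 group differed in how low these genes were. The median log2 ratio of the 36 genes to their WT means was -0.03 to 0.08 in WT brains, highest in WT replicate 1, and -0.31, -0.10 and -0.19 in *Nipbl*+/- replicates 1, 2 and 3. It ran from -0.24 in *Wapl* delta/+ replicate 1 to -0.02 in replicate 6, with a median of -0.08, and from -0.17 to -0.05 in double heterozygotes, with a median of -0.12. Every mutant brain but *Wapl* delta/+ replicate 6 was below every WT brain on this measure. The 41 genes together made up 0.286% to 0.297% of the normalized counts in WT, 0.254% to 0.280% in *Nipbl*+/-, 0.254% to 0.286% in *Wapl* delta/+ and 0.264% to 0.291% in double heterozygotes.

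**Figure D4:**
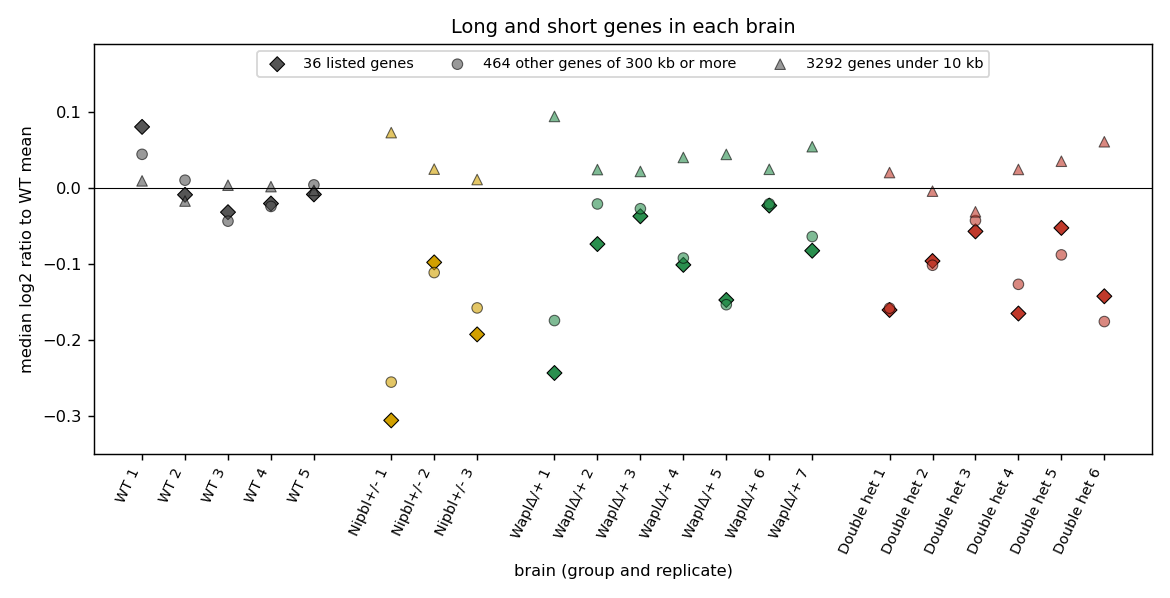
Median log2 ratio to the WT mean (y axis) in each of the 21 brains (x axis) of the 36 listed genes (diamonds), 464 other genes of 300 kb or more (circles) and 3292 genes under 10 kb (triangles). *Nipbl*+/- replicate 1 (-0.31) and *Wapl* delta/+ replicate 1 (-0.24) have the lowest diamonds, and the circles lie near the diamonds in each brain.

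Cell type markers moved beside these genes. *Nipbl*+/- replicate 1, with the lowest median, had the highest sum of 9 progenitor markers in its group, 25086 normalized counts against 19348 to 20704 in WT, and the lowest sum of 10 mature neuron markers, 82624 against 94582 to 99827. *Nipbl*+/- replicate 2, with the highest median of its group, had 18539 and 91876. In *Wapl* delta/+ replicates 1 and 5, the 2 lowest of that group, the progenitor sums were 24494 and 26035 and the mature neuron sums 86774 and 87809. Of the mature neuron markers 5 of 10 were called lower in *Nipbl*+/- brains, 0 in *Wapl* delta/+ and 2 in double heterozygotes, of the progenitor markers 3 of 9 were called higher in *Nipbl*+/- and 0 in the others, and of the astrocyte markers 5 of 7, 0 and 4 were called lower. The part of these markers in the changes of the long genes was not tested.

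Of 8 early neuron markers 1 was called higher in *Nipbl*+/- brains and 0 in the others, and their sums ran from 159956 to 183806 over all brains. In *Nipbl*+/- brains 5 of the 8 had a log2 fold change below 0. Of 6 oligodendrocyte lineage markers 3, 0 and 4 were called lower and of 6 microglia markers 3, 0 and 1, in *Nipbl*+/-, *Wapl* delta/+ and double heterozygote brains. The summed oligodendrocyte lineage markers were 6916 to 7636 in WT, 5423 to 6684 in *Nipbl*+/-, 6224 to 8190 in *Wapl* delta/+ and 5623 to 6707 in double heterozygote brains, so that every brain with the *Nipbl* deletion was below every WT brain. The part of these markers too was not tested. Of 6 meninges markers 1, 3 and 0 were called higher, and of 4 choroid plexus markers 1, 0 and 1. The other 3 choroid plexus markers were below 0 in *Nipbl*+/- brains and double heterozygotes, with medians over the 4 of -0.19 and -0.08. Of the endothelium, blood, pituitary and skeletal muscle markers, 1 of 5 blood markers was called higher in *Nipbl*+/- brains and 1 of 4 pituitary markers lower in *Wapl* delta/+ brains. The other 4 blood markers were below 0 in *Nipbl*+/- brains, with a median over the 5 of -0.22. The summed pituitary markers reached 2725 in WT replicate 2 and 1188 in double heterozygote 6, against 22.0 to 37.3 in the other WT brains.

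A pair of lists gives the surroundings of the 41 genes, chosen by what the genes are known to do. Of 33 other long neuronal genes, 21 were called in *Nipbl*+/- brains, all lower, with a median of -0.26 over the list. Among those called, the furthest from 0 were *Prkg1* (-0.49, adjusted *P* = 0.0062), a protein kinase gene, *Cntn5* (-0.39, 0.018), a contactin gene, and *Ptprt* (-0.36, 0.00040), a receptor phosphatase gene. In *Wapl* delta/+ brains 4 were called lower, among them *Nrxn3* (-0.26) and *Pde4d* (-0.25), and in double heterozygotes 5, among them *Nkain2* (-0.23) and *Pcdh15* (-0.21).

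Of 55 binding partners and paralogs of the 41, of any length, 25 were called in *Nipbl*+/- brains, 19 lower and 6 higher, with a median of -0.03 over the list. Among those called, the furthest from 0 were *Il1rap* (-0.58, adjusted *P* = 0.00021), paralog of the *Il1rapl* genes, the syntrophin gene *Sntb1* (-0.45, 0.021), whose product binds dystrophin, and the teneurin gene *Tenm1* (-0.44, 0.00027). In *Wapl* delta/+ brains 8 were called, 4 lower and 4 higher, led by *Tenm3* (-0.50, adjusted *P* = 0.038), *Reln* (-0.33, 0.038), the ligand upstream of *Dab1*, and *Csmd2* (-0.29, 0.076). In double heterozygotes 9 were called, 8 lower and 1 higher, led by *Kcnd2* (-0.28, adjusted *P* = 0.0043), the potassium channel that DPP10 accompanies, *Il1rap* (-0.26, 0.018) and the glypican gene *Gpc3* (0.26, 0.047).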

How the data were processed

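Polyadenylated RNA of 21 brains was sequenced by the authors as paired-end reads. Per the labels and the submitters' processing notes, reads were trimmed with cutadapt 2.4, mapped with STAR 2.5.3a to mm10 (GRCm38.p6) and counted per gene with featureCounts (Subread 1.6.4), and MultiQC 1.9 was run. The deposited values are raw counts, in 1 column per sample. Strand and multimapping settings are not given in the sources used here.

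For the tests, edgeR 4.0.16 was used in R 4.3.3, with TMM scaling and the quasi-likelihood test. A gene was tested where its normalized counts summed to 10 or more over the 21 libraries, each comparison of 2 groups on its own libraries and the interaction on all. The SE was derived from the fitted change and its F statistic, and ratios per library used a pseudocount of 0.5. Alternatives were DESeq2 1.42.0 and its size factors, other filters and thresholds, a joint fit, a replicate block, subsets of libraries, and leaving out each library. Scripts were tested on simulated counts. Spans came from a RefSeq table matched by symbol.

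The 41 genes and the lists were chosen with earlier results of these data known. All 41 genes are named. Counts by group are given for those of them called in any comparison (with over 12 called, for the 6 largest falls and rises among them) and for the IgLON genes. In the other lists, *Iglon5* and up to 3 called genes furthest from 0 are named per comparison. *P* values set the difference between groups against the spread between brains. The brains were taken as independent, though their litters are not given. No libraries within a group were duplicates. The remaining genes of these other lists, and the marker genes, are left unnamed.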

Additional observations from a re-analysis of the deposited data

Results flagged for a closer look

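A brain stood apart from the rest of its group, by Dixon's test at the 95% level, in 9 of 123 combinations of gene and group (7.32%), against about 1 in 20 by chance, and 3 of the 9 were in WT replicate 1. *Dab1* had 5368 normalized counts in WT replicate 1 against 4946 to 5061 in the other WT brains, and 4472 in double heterozygote 1 against 4865 to 5016. *Erbb4* had 1589 in WT replicate 1 against 1308 to 1345, and 1284 in double heterozygote 4 against 1370 to 1415. *Galntl6* had 732 in WT replicate 1 against 680 to 694. *Cdh13* had 4181 in double heterozygote 4 against 4345 to 4406, and *Exoc4* had 3183 in double heterozygote 2 against 3365 to 3468. *Gpc6* had 281 in *Wapl* delta/+ replicate 1 against 368 to 409, and *Sgcz* had 55.6 in *Wapl* delta/+ replicate 6 against 36.5 to 40.3.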

How the results depend on the processing

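No called gene of the 41 and no median over them changed sign under any alternative. In *Nipbl*+/- brains 12 of the 24 calls held in every fit without 1 library (13 to 23 called, median -0.23 to -0.15), and 9 of these under all other alternatives too. A joint fit of the 4 groups called 10 of the 41 and 141 of the other genes of 300 kb or more (171 to 272 without 1 library). The 5 calls in *Wapl* delta/+ brains became 0 in the joint fit and in the lower *mt-Nd3* set, 1 at an adjusted *P* below 0.05 or with a term for the *mt-Nd3* set, 8 without the filter or with the *Wapl* deletion written first, and 9 with DESeq2 (0 to 8 without 1 library, median -0.12 to -0.06). The 7 calls in double heterozygotes became 3 at 0.05, 4 in the joint fit or the lower set, 11 without the filter and 12 with DESeq2 (3 to 15 without 1 library, median -0.12 to -0.08). Against *Nipbl*+/- brains, double heterozygotes kept 0 calls without any 1 library (median 0.054 to 0.14). For the interaction DESeq2 called 7, the libraries with the *Wapl* deletion written first 1 (*Rora*), and fits without 1 library 0 to 3 (3 without double heterozygote 6, with 945 of all genes, and 2 without *Wapl* delta/+ replicate 2, with 252). Its median moved to 0.25 in the lower set and 0.23 with the deletion written first (0.13 to 0.27 without 1 library). The cause was not tested.

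Over all genes, the joint fit called 1659 in *Nipbl*+/-, 7 in *Wapl* delta/+ and 602 in double heterozygote brains, the lower set 1881, 47 and 672, and DESeq2 3504, 1446 and 1480, against 3422, 676 and 1000. At an adjusted *P* below 0.05 there were 181 in *Wapl* delta/+ brains and 547 in double heterozygotes, and the term for the *mt-Nd3* set left 305 in *Wapl* delta/+ brains. The libraries with the *Wapl* deletion written first gave 991 in *Wapl* delta/+ brains and 1814 in double heterozygotes, and fits without the filter gave 997 and 1217. DESeq2 called 5 genes between double heterozygotes and *Nipbl*+/- and 793 for the interaction, where the deletion written first gave 63. Same-numbered brains were not alike throughout: correlations of their deviations ran from -0.24 to 0.15 in the comparisons with WT and were 0.36, 0.11 and -0.0012 between double heterozygotes and *Nipbl*+/-. So few pairs cannot settle whether replicate numbers pair the brains. With a replicate block, 18, 10 and 2 of the 41 were called in *Nipbl*+/-, *Wapl* delta/+ and double heterozygote brains (1891, 1993 and 535 of all genes), and 1 (*Lsamp*, with 59 of all genes) between double heterozygotes and *Nipbl*+/-. For *Ctnna3* and *Immp2l*, the genes with the fewest counts, depth limits precision most.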
